A study of Mus musculus with 20 samples.

Results

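Killer lectin-like receptors are surface proteins best known from natural killer cells, and activated CD8 T cells make several of them as well. This account follows 9 of their genes, Klrd1, Klrc1, Klrc2, Klrk1, Klre1, Klri2, Klrg1, Gm156 (named Klrh1 in RefSeq) and BC035044, out of 27916 genes measured, in CD8 T cells recovered from mouse melanomas. The 9 genes were selected on measured values, namely their levels and the shares of cells holding them in these same libraries. Their levels and differences are therefore given as a description, and no count of members stands as evidence for a pattern.

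As background, the receptors fall into units by what they bind and how they signal. CD94, the product of Klrd1, pairs with NKG2A (Klrc1), which inhibits, or with NKG2C (Klrc2), which activates, and both pairs bind the non-classical MHC molecule Qa-1, encoded by H2-T23. NKG2D, the product of Klrk1, binds stress ligands of the Raet1, H60 and Ulbp1 genes and signals through the adaptor DAP10, encoded by Hcst. In rodent natural killer cells KLRE1 pairs with KLRI1 or with KLRI2, and KLRG1 is an inhibitory receptor for cadherins that marks terminally differentiated effector T cells.

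The cells were OT-I CD8 T cells, which carry a transgenic receptor for an ovalbumin peptide, from Tet2 knockout (Tet2-/-) or wild-type mice. They were transferred into mice with B16-OVA, a melanoma line expressing ovalbumin, and infiltrating cells were taken on day 8 after transfer for single-cell RNA sequencing in droplets. The 4 groups, each of 1 library, were Tet2 knockout with anti-PD-L1, an antibody that blocks the PD-1 ligand PD-L1, Tet2 knockout untreated, wild-type with anti-PD-L1, and wild-type untreated. The sources used here do not give the number of mice behind a library or the ages of the animals. All groups share the OT-I receptor and the tumour line, and host CD8 T cells could not be set apart, because cells were chosen by their CD8 and CD3 genes. Although the samples are labelled as CD8+ infiltrating cells, the libraries also held melanoma-like and macrophage-like cells, and only CD8 T cells enter the comparisons, 48.8% to 82.3% of the cells kept. With 1 library a group, every difference below lies between libraries and was not tested, and intervals are exact 95% intervals that cover counting error only.

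CD8 T cells numbered 1024 in treated knockout, 1549 in untreated knockout, 1320 in treated wild-type and 1122 in wild-type untreated, with median depths of 6840, 4413, 5437.5 and 3750 UMIs in that order. A UMI marks 1 captured molecule, and levels are given as CPM, a gene's UMIs scaled to a common total (counts per 1000000) over the library's CD8 T cells, which held between 4848474 and 8221003 UMIs in a library. Pairs of libraries shared 1 to 10 cell barcodes. Tet2 stood at 18.0 and 23.1 CPM in the 2 knockout libraries, anti-PD-L1 first, and at 15.8 and 13.6 CPM in the 2 wild-type libraries. The libraries read the 3′ end of transcripts and the position of the deletion is not given, so this level does not check the genotype labels. Xist stood at 806 and 915 CPM in knockout, against 639 and 546 CPM in wild-type, treated first. Cells with Xist and no Y-linked UMI numbered 977 of 1024 and 1454 of 1549 in knockout, against 929 of 1320 and 768 of 1122 in wild-type. The part of this difference in the genotype comparisons was not tested. Of 10 marker genes of natural killer cells, 8 or 9 were detected, and they summed to 760 CPM in knockout with anti-PD-L1, 410 CPM in knockout untreated, 940 CPM in wild-type with anti-PD-L1 and 120 CPM in wild-type untreated; the list includes Gzma, Tyrobp and Fcer1g, which T cells can also express. The defining genes Ncr1 and Klrb1c stood at 0 in every library and at 0.752 to 2.07 CPM. Without the cells that held Ncr1, Klrb1c, Tyrobp or Fcer1g, the log2 folds of knockout to wild-type for Gm156, given further on, were 1.66 under anti-PD-L1 and 1.63 untreated. The wild-type untreated library stood apart from the other 3. Of its CD8 T cells, 541 and 400 fell into 2 clusters that held few cells of the others, its 5 CD8 and CD3 genes summed to 3891 CPM against 4945 to 5435 CPM elsewhere, and its melanoma genes summed to 94.5 CPM against 14.97 to 27.2 CPM. Of its CD8 T cells 68.2% were mitotic, defined by 2 or more UMIs over Mki67, Top2a, Cdk1, Ccnb1 and Birc5, against 41.8% in treated knockout, 49.9% in untreated knockout and 30.9% in treated wild-type. The mitotic shares were taken at full depth, which differed between libraries. The part of these features in the comparisons with wild-type untreated was not tested.

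All 9 genes lie on mouse chromosome 6 (RefSeq, GRCm38.p6, the assembly of the mm10 build named by the submitters). Of these, 7 lie together at 129559365 to 129784270, in the order Klre1, Klrd1, Klrk1, Klrc2, Klrc1, Klri2 and Gm156. BC035044 lies apart from them at 128848044 to 128891124, where its 5′ end overlaps Clec2i on the opposite strand. Klrg1 is farther away, at 122270596 to 122282833. In the authors' counting, reads of the similar Klrc genes could have been split among them, as could those of Klri1 and Klri2, and reads in the overlap of BC035044 and Clec2i could have been given to either gene, since the strand setting is not given in the sources used here.

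Promoters (250 bases before to 50 after a RefSeq start site) were available for 6 of the 9 members. They are shown for Klrk1, whose level differed least among the members past the floor given further on, for the neighbours Klrc2 and Klrc1, which were low in wild-type untreated, and for Gm156 and BC035044, which were higher in knockout under both treatments. All 5 lie on the minus strand, at chr6:129623815-129624114 (Klrk1), chr6:129660547-129660846 (Klrc2), chr6:129678924-129679223 (Klrc1), chr6:129784221-129784520 (Gm156) and chr6:128891075-128891374 (BC035044). They are written 5′ to 3′ on the gene's own strand, with capitals where 1 of 5 motifs matched on either strand.
Klrk1: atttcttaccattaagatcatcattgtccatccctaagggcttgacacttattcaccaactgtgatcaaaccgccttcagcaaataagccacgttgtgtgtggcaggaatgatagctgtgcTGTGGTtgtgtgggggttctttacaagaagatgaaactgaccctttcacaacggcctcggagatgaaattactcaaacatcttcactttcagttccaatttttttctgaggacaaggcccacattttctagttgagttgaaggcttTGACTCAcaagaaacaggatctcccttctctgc
Klrc2: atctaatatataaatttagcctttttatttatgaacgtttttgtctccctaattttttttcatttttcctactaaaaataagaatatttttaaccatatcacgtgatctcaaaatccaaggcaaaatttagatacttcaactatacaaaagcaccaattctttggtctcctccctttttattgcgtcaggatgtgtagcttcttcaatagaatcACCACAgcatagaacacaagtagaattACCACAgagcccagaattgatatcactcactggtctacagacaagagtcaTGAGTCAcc
Klrc1: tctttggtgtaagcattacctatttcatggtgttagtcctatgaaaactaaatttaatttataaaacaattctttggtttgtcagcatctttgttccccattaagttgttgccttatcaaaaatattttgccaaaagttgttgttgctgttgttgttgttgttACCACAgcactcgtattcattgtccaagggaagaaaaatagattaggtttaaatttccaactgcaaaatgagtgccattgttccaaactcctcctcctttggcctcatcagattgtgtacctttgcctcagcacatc
Gm156: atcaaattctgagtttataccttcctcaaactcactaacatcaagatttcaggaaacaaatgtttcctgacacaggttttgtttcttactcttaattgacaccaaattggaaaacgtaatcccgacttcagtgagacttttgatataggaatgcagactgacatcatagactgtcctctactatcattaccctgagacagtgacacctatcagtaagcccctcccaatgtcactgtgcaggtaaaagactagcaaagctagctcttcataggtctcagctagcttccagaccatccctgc
BC035044: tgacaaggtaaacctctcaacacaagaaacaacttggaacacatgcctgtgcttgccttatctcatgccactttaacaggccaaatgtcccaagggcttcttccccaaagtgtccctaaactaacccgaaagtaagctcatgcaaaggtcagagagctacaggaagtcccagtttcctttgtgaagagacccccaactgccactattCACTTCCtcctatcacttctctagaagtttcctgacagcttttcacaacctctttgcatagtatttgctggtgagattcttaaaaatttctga
The motifs were TGANTCA for AP-1, TGTGGT for RUNX, TCACACC for T-box, TGACGTCA for CRE and GGAAGTG for ETS factors. Klrk1 held RUNX letters 129 bases before its start site and AP-1 letters 17 bases after it. Klrc2 held RUNX letters in 2 places and AP-1 letters in 1, Klrc1 held RUNX letters in 1, and BC035044 held ETS letters in 1. None of the 5 motifs was in the window shown for Gm156. No match overlapped another. Of 32851 mouse promoters of the same length, 7.81% held the AP-1, 16.8% the RUNX, 3.98% the T-box, 1.79% the CRE and 11% the ETS letters, so the matches are a description of the windows.

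Among the CD94 receptors, the genes of CD94 and NKG2A were highest under anti-PD-L1 and lowest in wild-type untreated. Klrd1 stood at 826 CPM (806 to 846) in knockout with anti-PD-L1, 590 CPM (573 to 607) in knockout untreated, 806 CPM (787 to 826) in wild-type with anti-PD-L1 and 339 CPM (323 to 356) in wild-type untreated. Klrc1 stood at 374 CPM (361 to 388), 177 CPM (168 to 187), 276 CPM (264 to 287) and 99.0 CPM (90.3 to 108) in the same 4 libraries. The 4 intervals of Klrc1 did not overlap, whereas for Klrd1 those of the 2 treated libraries did. The intervals cover counting error only, and their overlap was not set against that of other genes. Klrc2 had 74.7 CPM (68.9 to 81.0), 64.3 CPM (58.9 to 70.1), 71.4 CPM (65.7 to 77.4) and 28.3 CPM (23.7 to 33.4) in that order, so wild-type untreated was low and the other 3 libraries lay close together.

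Klrk1 was the steadiest of the receptors found in most cells. It stood at 643 CPM (626 to 661) in knockout with anti-PD-L1, 642 CPM (624 to 660) in knockout untreated, 701 CPM (683 to 720) in wild-type with anti-PD-L1 and 558 CPM (537 to 579) in wild-type untreated. Klre1 had 75.6 CPM (69.7 to 81.9), 57.4 CPM (52.3 to 62.9), 106 CPM (99.5 to 114) and 60.8 CPM (54.1 to 68.2) in the same order, so it was highest in wild-type with anti-PD-L1. Klri2, whose product can pair with that of Klre1 in rodents, had another order, with 36.6 CPM (32.5 to 41.0), 28.7 CPM (25.1 to 32.7), 15.4 CPM (12.9 to 18.4) and 7.84 CPM (5.55 to 10.8). Both knockout libraries lay above both wild-type libraries for Klri2.

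Gm156 also separated the genotypes. It stood at 278 CPM (267 to 290) in knockout with anti-PD-L1 and 192 CPM (183 to 202) in knockout untreated, against 91.7 CPM (85.3 to 98.5) in wild-type with anti-PD-L1 and 64.4 CPM (57.4 to 71.9) in wild-type untreated. BC035044 had 21.6 CPM (18.5 to 25.1), 34.0 CPM (30.1 to 38.3), 8.15 CPM (6.32 to 10.3) and 21.9 CPM (17.9 to 26.4) in that order. Its knockout library under treatment lay level with wild-type untreated. Klrg1 was close to absent from the CD8 T cells, with 3, 18, 31 and 9 UMIs in the 4 libraries, or 0.374, 2.26, 3.77 and 1.86 CPM.

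**Figure D1:**
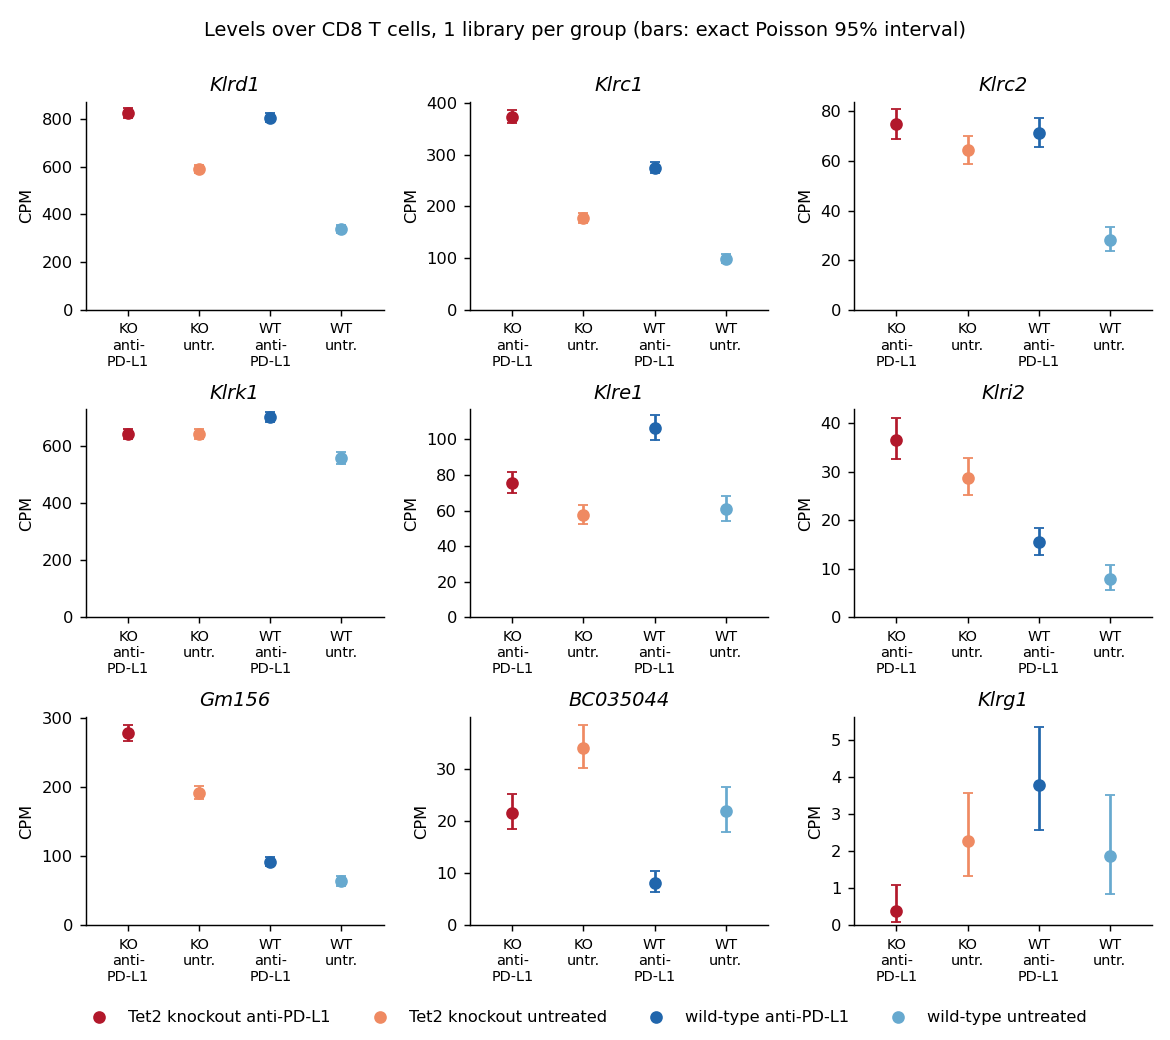
Level of each receptor gene in CPM (vertical axes, each from 0) over the CD8 T cells of each library, Tet2 knockout (KO) in reds and wild-type (WT) in blues, untr. meaning untreated. Points are library values and bars exact Poisson 95% intervals, and in Gm156 and Klri2 both knockout points lie above both wild-type points.

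To count differences, a floor of a mean of 20 CPM over the 4 libraries and a difference of at least 1.5-fold were used, and 8 of the 9 members passed the floor, Klrg1 being the exception. Between the untreated libraries, 6 of these 8 were higher in knockout than in wild-type, where 7.89% of all 4624 genes past the floor were higher. None was lower, against 6.92% of all genes. The median log2 fold over all 9 members was 0.80, and over all genes past the floor it was -0.10. Since the members were chosen on these levels, nothing is read from the counts. Under anti-PD-L1, 3 members were higher in knockout than in wild-type, where 1.1% of all genes were, and none was lower, against 1.51% of all genes. The median log2 fold was 0.07 over the 9 members and 0.09 over all genes.

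Klri2, Gm156 and BC035044 were higher in knockout in both genotype comparisons, which share no library. Klri2, with a mean of 22.1 CPM, passed the floor only through knockout, as its wild-type levels of 15.4 and 7.84 CPM lie under it. BC035044, with a mean of 21.4 CPM, was highest in untreated knockout (34.0 CPM) and lowest in treated wild-type (8.15 CPM). The floor thus favoured counting these genes as higher in knockout, and that they were counted is a description only. For Gm156 the log2 fold, knockout over wild-type, was 1.60 (1.48 to 1.72) under anti-PD-L1 and 1.58 (1.40 to 1.76) untreated, close to 3-fold in both. Untreated it was 0.86 without the clusters led by globin genes. It was -0.93 without all clusters led by genes of another lineage, the setting that follows the planned definition of CD8 T cells. This setting removes the cluster richest in Gm156 and leaves 570 knockout and 545 wild-type cells. For Klri2 it was 1.24 (0.94 to 1.55) under anti-PD-L1 and 1.87 (1.37 to 2.41) untreated. For BC035044 it was 1.41 (0.99 to 1.83) under anti-PD-L1 and 0.64 (0.31 to 0.97) untreated, and the untreated value was 0.29 when levels were scaled to the UMIs of CD8 and CD3 genes in place of library totals. The untreated value of BC035044 lay near the limit of 1.5-fold, and it was no longer counted with a stricter cell filter or a finer clustering (both 0.58, just under the limit) or in cells with Xist and no Y-linked UMI (0.55). Nor was it counted with cells weighted equally, without mitotic cells or without clusters mostly of 1 library, where its fold was 0.59, 0.70 and 1.41 but its mean level fell below the floor.

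Klrc2, Klrc1 and Klrd1 had larger genotype folds untreated than under anti-PD-L1. Untreated, the log2 folds for Klrc2, Klrc1 and Klrd1 were 1.19 (0.91 to 1.47), 0.84 (0.69 to 0.99) and 0.80 (0.72 to 0.88). Under anti-PD-L1 the same genes had 0.07 (-0.10 to 0.23), 0.44 (0.36 to 0.52) and 0.03 (-0.01 to 0.08). Klrk1 had 0.20 (0.13 to 0.27) untreated and -0.12 (-0.18 to -0.07) under anti-PD-L1, and Klre1 had -0.08 (-0.30 to 0.13) untreated and -0.49 (-0.65 to -0.34) under anti-PD-L1. The differences between these folds were not tested. Scaled to CD8 and CD3 UMIs, which shifts every untreated genotype fold by -0.35, Klrc1 and Klrd1 came to 0.50 and 0.45, under 1.5-fold. Without the globin-led clusters they came to 0.34 and 0.17, and without all clusters led by another lineage to -0.12 and -0.30. In the same 2 settings Klre1 untreated came to -0.83 and -1.54, and without the clusters mostly of 1 library to 0.75, so its sign depended on which clusters were used.

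**Figure D2:**
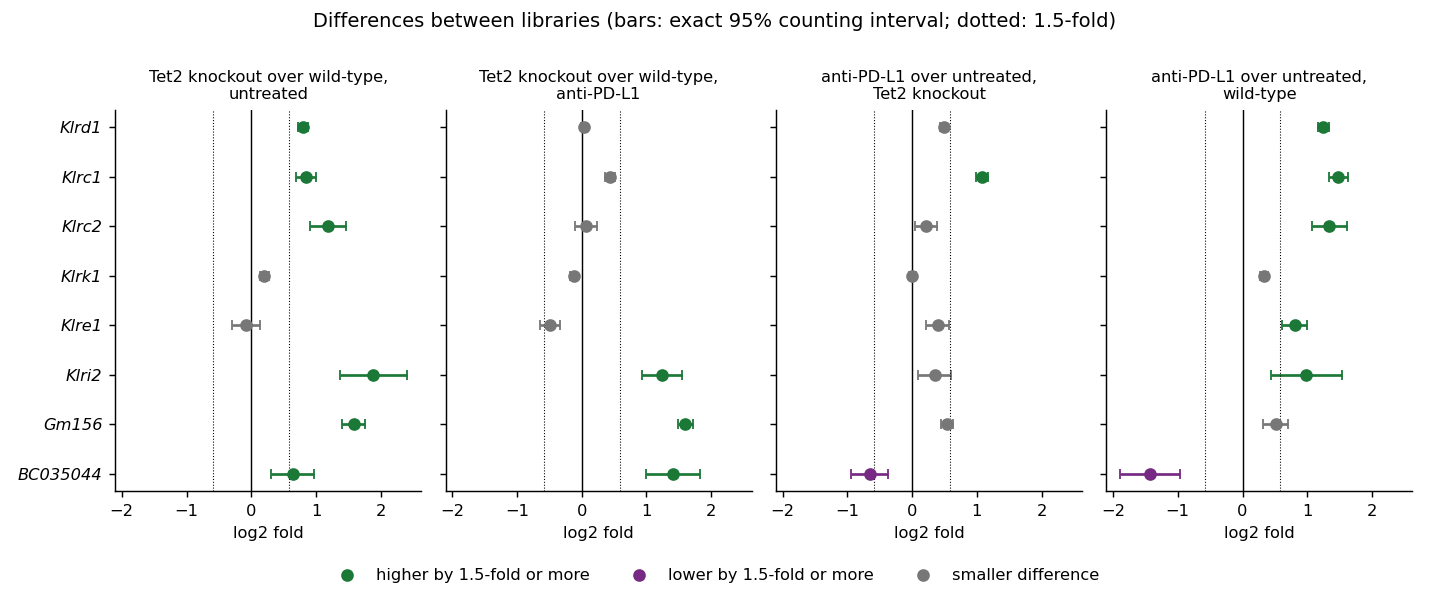
Log2 fold of each of the 8 receptors past the floor (rows) in the 4 comparisons of libraries (panels), with exact 95% counting intervals; dotted lines mark 1.5-fold. Gm156, Klri2 and BC035044 are to the right of the dotted line in both genotype panels, and BC035044 is to the left of it in both treatment panels.

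With anti-PD-L1, the inhibitory partner Klrc1 was higher in both genotypes and BC035044 lower in both. BC035044, with a mean of 21.4 CPM, stood at 34.0 and 21.9 CPM untreated and at 21.6 and 8.15 CPM treated, knockout first. The floor thus favoured counting BC035044 as lower with anti-PD-L1, and that it was counted is a description only. In the knockout libraries 1 member, Klrc1, was higher with anti-PD-L1 than untreated, where 2.88% of all genes were, and 1 member, BC035044, was lower, against 1.12% of all genes. In wild-type 5 members were higher with anti-PD-L1, where 11.2% of all genes were, and BC035044 alone was lower, against 20.5% of all genes. The median log2 fold over the 9 members was 0.35 in knockout and 0.98 in wild-type, and over all genes it was -0.01 in knockout and -0.18 in wild-type.

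The log2 fold of anti-PD-L1 over untreated for Klrc1 was 1.08 (0.99 to 1.17) in knockout and 1.48 (1.33 to 1.62) in wild-type. The other 4 members higher in wild-type were Klrc2 at 1.34 (1.07 to 1.62), Klrd1 at 1.25 (1.17 to 1.33), Klri2 at 0.98 (0.45 to 1.54) and Klre1 at 0.81 (0.61 to 1.00). In knockout these 4 had 0.22, 0.48, 0.35 and 0.40, all under 1.5-fold. For BC035044 the log2 fold was -0.65 (-0.94 to -0.37) in knockout and -1.42 (-1.89 to -0.97) in wild-type, which rests on 173 and 271 UMIs in knockout and on 67 and 106 UMIs in wild-type, treated library first. Gm156 had 0.53 (0.44 to 0.63) in knockout and 0.51 (0.32 to 0.71) in wild-type. Klrk1 had 0.00 (-0.05 to 0.06) in knockout and 0.33 (0.26 to 0.40) in wild-type. Without mitotic cells Gm156 had 0.01 in knockout and -0.12 in wild-type, and scaling to CD8 and CD3 UMIs, which shifts every wild-type treatment fold by -0.48, gave 0.03 for Gm156 and -0.15 for Klrk1 in wild-type. Without all clusters led by another lineage, the wild-type folds came to 0.09 for Klrc1, -0.12 for Klrd1, -0.83 for Klre1 and -1.39 for Gm156, on 139 treated and 545 untreated cells. The wild-type treatment comparison uses the same wild-type untreated library as the untreated genotype comparison.

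Levels of whole libraries mix how many cells hold a receptor with how much each holds. To compare shares across depths, each CD8 T cell was thinned to 2600 UMIs, which left 1003, 1399, 1243 and 904 cells in knockout with anti-PD-L1, knockout untreated, wild-type with anti-PD-L1 and wild-type untreated, and left out 2.05%, 9.68%, 5.83% and 19.4% of them. Klrk1 was found in 78.2%, 80.2%, 81.4% and 72.2% of thinned cells in that order. Klrd1 was found in 77.6%, 71.0%, 78.1% and 47.3%, and Klrc1 in 59.0%, 35.5%, 50.2% and 23%. Without thinning Klrc1 was found in 85.9%, 53.3%, 70.4% and 32.7%. The order of the libraries for Klrc1 was therefore the same in levels and shares. In melanoma-like cells, which should lack these receptors and were deeper, with medians of 10203 to 31762.5 UMIs, thinned shares were at most 2% for every member.

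The rarer receptors were found in 18.9%, 16.6%, 17.8% and 7.41% of thinned cells for Klrc2 and in 16.8%, 13.1%, 21.6% and 13.2% for Klre1. Klri2 was found in 7.78% (6.20% to 9.61%) and 6.0% (4.82% to 7.38%) of thinned knockout cells with anti-PD-L1 and untreated, against 3.22% (2.31% to 4.36%) and 2.65% (1.71% to 3.92%) of wild-type cells. BC035044 was found in 5.28%, 7.79%, 1.29% and 5.53%. Counted together, the mean number of the 9 receptors found in a thinned cell was 2.88 in treated knockout, 2.51 in untreated knockout, 2.64 in treated wild-type and 1.83 in wild-type untreated. At least 3 receptors were found in 64.3%, 48.5%, 55.7% and 25.9% of cells in that order, and none in 2.79%, 3.50%, 2.74% and 11.8%.

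Gm156 differed from the other receptors in how unevenly cells held it. It was found in 24.2% (21.6% to 27.0%) and 20.3% (18.2% to 22.5%) of thinned knockout cells with anti-PD-L1 and untreated, against 9.25% (7.70% to 11%) and 10.7% (8.79% to 12.9%) of wild-type cells. Without thinning the shares were 29.3% and 24.1% in knockout, against 11.8% and 13.5% in wild-type. An unthinned cell that held it carried on average 7.44 UMIs in treated knockout and 4.10 in untreated knockout, against 4.83 in treated wild-type and 2.05 in wild-type untreated, and single cells carried up to 37, 18, 23 and 7 UMIs. These unthinned averages move with depth as well.

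Had the same UMIs been spread evenly at random over the thinned cells, as a Poisson spread of the mean gives, 54.8%, 46.7%, 22.6% and 16.6% of cells would have held Gm156 in knockout with anti-PD-L1, knockout untreated, wild-type with anti-PD-L1 and wild-type untreated. The observed shares were 0.442, 0.435, 0.409 and 0.647 times these. Over all 4624 genes past the floor the median of this ratio was 0.985 to 0.990, and between 14 and 19 genes in a library had a lower ratio than Gm156. For Klrk1 the ratio was 0.943 to 0.961 and for Klrd1 0.789 to 0.871. At least 3 UMIs of Gm156 were found in 12.3% (10.3% to 14.5%) and 10.4% (8.82% to 12.1%) of thinned knockout cells, against 3.30% (2.38% to 4.45%) and 1.77% (1.01% to 2.86%) of wild-type cells, anti-PD-L1 first in each genotype. These shares come from the values the gene was selected on and from 1 library a group, and their intervals cover counting of cells only.

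**Figure D3:**
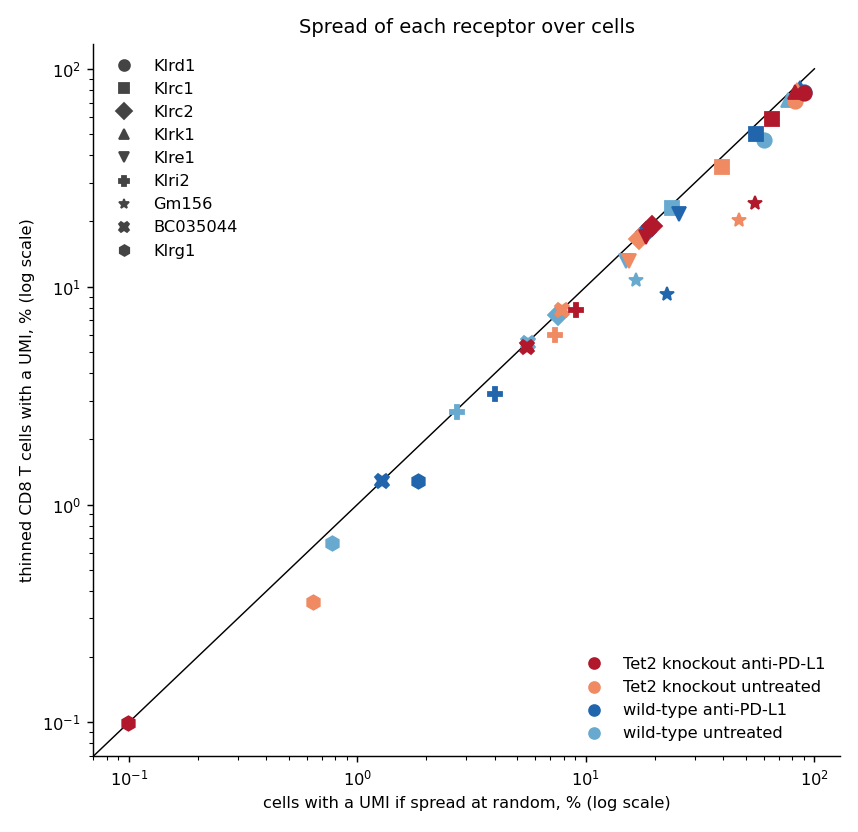
Share of thinned CD8 T cells with a UMI of each receptor (vertical, %, log scale) against the share that an even random spread of the same mean would give (horizontal, %, log scale); symbols are genes, colours libraries, and the line marks equal shares. Most receptors lie near the line, and the 4 stars of Gm156 lie below it.

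The uneven spread followed groups of similar cells. Clusters were built from the genes of these cells, Gm156 among them, so the levels by cluster are a description. In cluster 8, led by Gm156, Serpinb1a and Cxcr6, Gm156 stood at 651 CPM in knockout with anti-PD-L1, 710 CPM in knockout untreated and 256 CPM in wild-type with anti-PD-L1, over 267, 313 and 267 cells. In cluster 12, led by division genes such as Ube2c and Mki67, it stood at 381, 365 and 133 CPM. In cluster 13, led by Gzma, Ifitm1 and Ccl5, it stood at 16.3, 16.7 and 4.75 CPM, and in cluster 15, led by the cytokine genes Xcl1, Ccl1 and Ccl4, at 1.73, 5.07 and 0 CPM. Wild-type untreated had under 30 cells in each of these 4 clusters. Clusters 8 and 12 had a higher fold of the gamma delta T cell list (2.66 and 2.48) than of the CD8 T cell list (2.08 and 1.54), and Tcrg-C2 was among the leading genes of cluster 8. The 4 genes of the gamma delta list, all detected in every library, summed over all CD8 T cells to 258 CPM in knockout with anti-PD-L1, 200 CPM in knockout untreated, 234 CPM in wild-type with anti-PD-L1 and 95.9 CPM in wild-type untreated, and their part in the levels of Gm156 was not tested. Clusters 1 and 2 held cells of both untreated libraries, and there Gm156 stood at 121 and 65.5 CPM in knockout, against 65.8 and 16.1 CPM in wild-type. These values came from 143 and 34 knockout cells and from 120 and 541 wild-type cells. In cluster 7 Gm156 stood at 137 CPM over 400 cells of wild-type untreated. In cluster 4 it stood at 30.1 CPM over 382 cells of knockout untreated. The untreated library of the other genotype had under 30 cells in each of these clusters.

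Other receptors had other patterns over the same clusters. Klrc1 was at least as high in cluster 15, at 438 CPM in knockout with anti-PD-L1, 309 CPM in knockout untreated and 427 CPM in wild-type with anti-PD-L1, as in cluster 8, at 427, 266 and 327 CPM. Klri2 was low in cluster 13, at 8.57, 3.70 and 7.91 CPM, and stood at 34.5, 27.9 and 20.9 CPM in cluster 15. Klre1 was highest in cluster 8, at 113, 118 and 184 CPM. In wild-type untreated Klre1 stood at 132 CPM in cluster 7, led by Gzmc and Gzmf, and at 11.7 and 20.8 CPM in clusters 1 and 2. Klrk1 lay between 411 and 848 CPM over the 9 clusters with at least 30 cells of a library.

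Cells were also grouped without any receptor gene, by unthinned UMIs, with at least 1 UMI counted as holding Tcf7 or Havcr2. Such groups depend on depth. In cells not mitotic and without Tcf7 the median was 5443 and 3349 UMIs in knockout, against 4405 and 2719.5 in wild-type, treated first. The part of depth in the values by group was not tested. Among mitotic cells Gm156 stood at 254 CPM (239 to 269) in knockout with anti-PD-L1 and 126 CPM (116 to 136) in knockout untreated, against 84.4 CPM (75.4 to 94.1) in wild-type with anti-PD-L1 and 52.4 CPM (45.4 to 60.3) in wild-type untreated. Among cells that were not mitotic and held no Tcf7, a gene of progenitor-like T cells, it stood at 325 CPM (304 to 346) and 336 CPM (312 to 360) in knockout, against 105 CPM (94.3 to 116) and 132 CPM (107 to 160) in wild-type, treated first. In these cells the treated and untreated libraries of a genotype lay close together, whereas in mitotic cells the treated ones were higher. For Gm156 the log2 fold, knockout over wild-type, was above 0 in all 4 groups of cells, from 1.03 to 1.75 under anti-PD-L1 and from 0.93 to 2.43 untreated. The groups were mitotic cells, cells not mitotic with Tcf7, those without it, and the cells with Havcr2 among the last. The Havcr2 group therefore holds cells already counted in the group without Tcf7 and is not a separate set.

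Klri2 was above 0 likewise, with folds from 0.59 to 2.02 in 4 groups of cells under anti-PD-L1 and from 0.98 to 2.79 in the 3 untreated groups with at least 20 UMIs over both libraries. Under anti-PD-L1 its interval in the cells with Havcr2 reached below 0 (-0.23 to 1.69). BC035044 had genotype folds of 1.19 and 1.38 in the 2 groups measured under anti-PD-L1 and 0.68 to 0.85 in 3 groups untreated. Untreated, its interval reached below 0 in cells with Tcf7 (-0.49 to 2.45) and in those without it (-0.24 to 1.71). In mitotic cells it did not (0.33 to 1.08). Klre1 went the other way, with genotype folds below 0 in all 4 groups under both treatments, though 4 of the 8 intervals reached above 0. Its lowest was in cells with Havcr2, an exhaustion marker, and without Tcf7, where it stood at 62.4 CPM (48.7 to 78.9) and 55.7 CPM (33.5 to 87.0) in knockout, against 128 CPM (107 to 151) and 241 CPM (162 to 344) in wild-type, treated first. The wild-type untreated value came from 30 UMIs in 39 cells. Klrd1 in the same cells stood at 983 and 744 CPM in knockout, against 1099 and 891 CPM in wild-type, on 39 cells in wild-type untreated. In the other 3 groups of cells wild-type untreated was lower, with untreated log2 folds of knockout to wild-type of 0.79 in mitotic cells, 1.29 in cells with Tcf7 and 0.33 in cells without it.

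**Figure D4:**
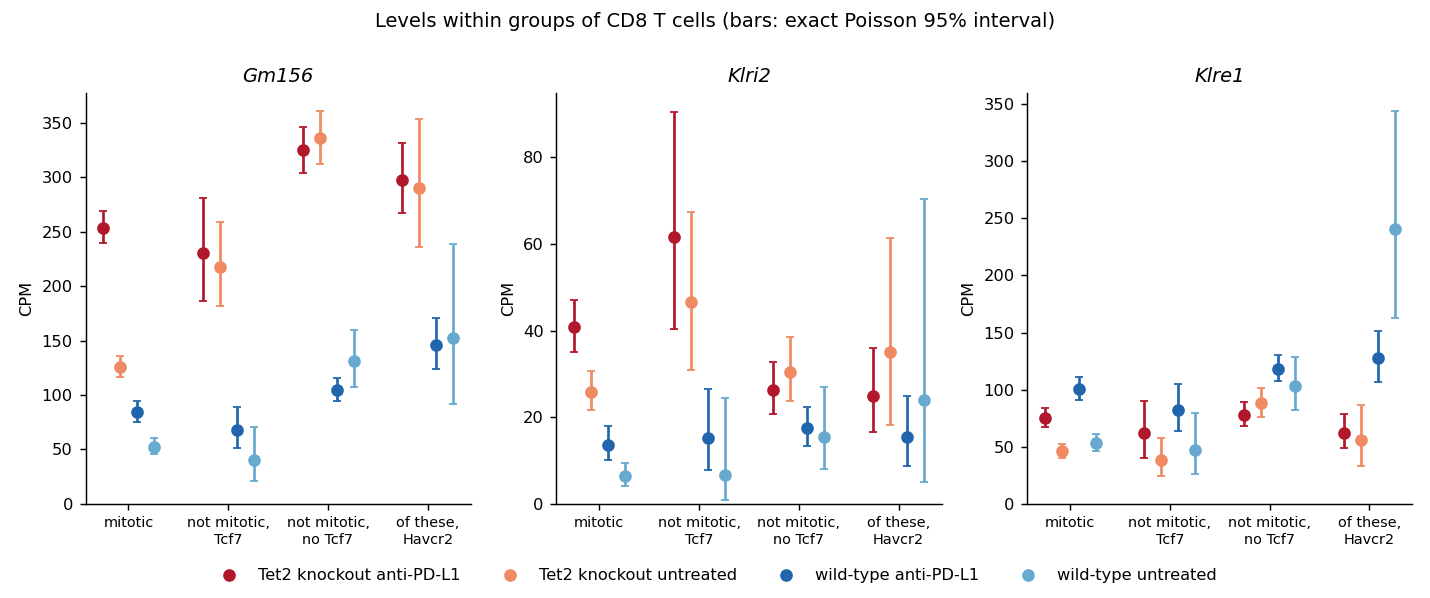
Levels of Gm156, Klri2 and Klre1 in CPM (vertical axes, from 0) in mitotic CD8 T cells, cells not mitotic with Tcf7, cells not mitotic without Tcf7, and those of the last that hold Havcr2, for each library (colours) with exact Poisson 95% intervals. Gm156 lies higher in knockout than in wild-type within each treatment in all 4 groups, and Klre1 lies lower.

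CD94 and NKG2A act as a pair, so their genes were followed in the same cells. A UMI of both was found in 47.5% of thinned cells in treated knockout, 27.2% in untreated knockout, 41.7% in treated wild-type and 12.7% in wild-type untreated. Of the cells with Klrc1, 80.4%, 76.7%, 83% and 55.3% also held Klrd1 in that order, against 73.5%, 67.8%, 73.2% and 45.0% of cells without it. The inhibitory Klrc1 and the activating Klrk1 were found together in 48.8%, 29.7%, 42.9% and 18.4% of thinned cells. For Klri2 and Klre1, 20.5% (12.2% to 31.2%), 14.3% (7.61% to 23.6%), 25.0% (12.7% to 41.2%) and 12.5% (2.66% to 32.4%) of cells with Klri2 held Klre1, and these intervals included the shares in cells without Klri2.

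Klre1 and Gm156 were found together more often than their 2 shares multiplied would give in each library, by 1.20, 1.40, 1.29 and 2.66 times in knockout with anti-PD-L1, knockout untreated, wild-type with anti-PD-L1 and wild-type untreated. For Klri2 and Gm156 the ratios were 1.43, 1.23, 2.70 and 1.16, on 27, 21, 10 and 3 cells with both. For Klrd1 and Klrk1, each present in most cells, they were 1.01 to 1.05. Of cells with Klre1, 87.0%, 86.3%, 88.8% and 73.1% also held Klrd1, against 75.7%, 68.7%, 75.2% and 43.4% of cells without it. All 4 libraries thus had Klrd1 more often in cells with Klre1.

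The adaptors of these receptors were present unequally. Hcst, which encodes DAP10, stood at 346 CPM in knockout with anti-PD-L1, 233 CPM in knockout untreated, 471 CPM in wild-type with anti-PD-L1 and 156 CPM in wild-type untreated. Of thinned cells with Klrk1, 62.8%, 46.4%, 69.6% and 36.0% held Hcst in that order, against 63.0%, 41.2%, 60.6% and 28.3% of cells without Klrk1. Tyrobp, which encodes DAP12, the adaptor of CD94 with NKG2C, stood at only 5.74, 5.14, 7.42 and 4.33 CPM, and 0.862% to 2.99% of cells with Klrc2 held it, on 2 or 3 cells a library. Fcer1g, an adaptor of other receptors, stood at 26.4 and 15.6 CPM in knockout, against 86.4 and 30.7 CPM in wild-type, treated first. Of the 11 adaptors and downstream genes listed, 9 passed the floor. Between the untreated libraries 2 of the 9 were higher in knockout (Inpp5d at 1.03 and Pik3r1 at 1.5), where 7.89% of all genes past the floor were. Lower were 2 (Fcer1g at -0.98 and Ptpn6, a phosphatase of inhibitory receptors, at -0.94), against 6.92% of all genes. Under anti-PD-L1 Fcer1g alone was past 1.5-fold, at -1.71, where 1.1% of all genes were higher and 1.51% lower.

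The ligand of the CD94 receptors was present in the CD8 T cells and in other cells of the tumour. H2-T23 stood at 105 CPM in CD8 T cells of knockout with anti-PD-L1, 77.8 CPM in knockout untreated, 113 CPM in wild-type with anti-PD-L1 and 64.4 CPM in wild-type untreated. In macrophage-like cells it stood at 203, 135, 194 and 103 CPM in that order, and in melanoma-like cells at 38.0, 21.4, 27.6 and 10.9 CPM. Within each genotype all 3 cell classes had more H2-T23 with anti-PD-L1. Of the listed ligands of NKG2D, Raet1a, Raet1b and Raet1c were not measured. Those measured were scarce in melanoma-like cells and CD8 T cells. Raet1d stood at 0.335 to 1.27 CPM in melanoma-like cells and at 0 in CD8 T cells. Raet1e stood at 2.53 to 8.70 CPM in melanoma-like cells and at 0 in CD8 T cells, Ulbp1 at 0 to 1.04 CPM in melanoma-like cells and at 1.03 to 4.38 CPM in CD8 T cells, and H60b and H60c at 0 in melanoma-like cells. Cdh2, which encodes the KLRG1 ligand N-cadherin, stood at 15.6 to 28.5 CPM in melanoma-like cells. Of the 13 ligands listed, 10 were measured and 3 passed the floor in CD8 T cells (H2-T23, H2-D1 and H2-K1). None of these was past 1.5-fold in either genotype comparison. Of all genes past the floor, 7.89% were higher and 6.92% lower in knockout untreated, and 1.1% and 1.51% under anti-PD-L1.

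Transcription factors and cytokine receptors known to govern such receptor genes were followed as a list of 9, of which 6 passed the floor. Id2 (0.66) and Zeb2 (0.87) were higher in knockout untreated than in wild-type untreated, where 7.89% of all genes past the floor were. None was lower, against 6.92% of all genes. Between genotypes under anti-PD-L1 none of the 6 was past 1.5-fold in either direction, where 1.1% of all genes were higher and 1.51% lower. With anti-PD-L1 over untreated, Id2 was higher in knockout (0.60), where 2.88% of all genes were. In wild-type Tbx21 (0.65), Id2 (1.44), Zeb2 (1.64) and Il2rb (0.85), all log2 folds, were higher, where 11.2% of all genes were. Of 33 other genes of the lectin receptor family and its block, 31 were measured and 2 passed the floor, Klra3 and Cd69. Klra3 was lower in knockout with anti-PD-L1, at -0.72, where 1.51% of all genes past the floor were, and untreated, at -0.79, against 6.92%. With anti-PD-L1 over untreated its log2 fold was 1.36 in knockout and 1.28 in wild-type. Its mean was 22.4 CPM, with 24.1 and 9.41 CPM in knockout and 39.7 and 16.3 CPM in wild-type, treated first. Klra3 thus passed the floor through the treated libraries, wild-type most, and that it was counted is a description only.

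The surrounding genes were followed as well. Of 39 other genes measured between 128348044 and 130266568 on chromosome 6, 5 passed the floor (Rhno1, Fkbp4, 2310001H17Rik, Cd69 and Gabarapl1). Only Cd69 was higher in knockout untreated, at 1.22, where 7.89% of all genes past the floor were. Under anti-PD-L1 2310001H17Rik was lower, at -0.61, where 1.51% of all genes were. By the distance between log2 CPM centred over the 4 libraries, the gene closest to Gm156 among all 4624 was Klri2, and the gene closest to Klri2 was Gm156, both at 0.36. The gene closest to Klrc2 was Peli1 (0.10), to Klrd1 Amica1 (0.02), to Klrk1 Rac2 (0.03), to Klre1 Crtam (0.13) and to BC035044 Mybl2 (0.85). With 4 libraries this distance describes the profiles and nothing more.

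Outside the CD8 T cells the receptors were found in 3 cell groups. Macrophage-like cells held Klrk1 at 125, 94.3, 89.6 and 101 CPM in knockout with anti-PD-L1, knockout untreated, wild-type with anti-PD-L1 and wild-type untreated, and at least 1 UMI in 29.1%, 20.1%, 15.9% and 22.4% of thinned cells, whereas the next member, Klrd1, was found in 2.24% to 6.35%. In melanoma-like cells Klrk1 stood at 2.53 to 5.36 CPM. A cluster of 296 cells led by Il1b and other myeloid genes held Klrk1 at 224, 261, 250 and 425 CPM, Klrd1 at 46.4, 119, 140 and 175 CPM and Gm156 at 15.5, 40.2, 25.0 and 99.0 CPM in the same order, and whether these came from doublets with T cells was not tested. A small cluster of 49 cells led by Cma1, Gzmg and the Klra genes, left unnamed and counted outside the CD8 T cells, held Klrg1 at 217, 75.8, 168 and 263 CPM and Klre1 at 285, 360, 454 and 296 CPM. Its cells numbered 9, 16, 17 and 7, the 16 UMIs of Klrg1 in knockout with anti-PD-L1 were all in 1 cell, and Gm156 was at 0 in 3 of the 4 libraries there, with 3 UMIs in knockout untreated.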

How the data were processed

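The authors deposited 1 table of raw UMI counts for each single-cell library, made with version 2 of a droplet kit that reads transcript 3′ ends, per the labels' protocols. Of the build and tools in the submitters' processing notes (mm10; DESeq2, bedtools, HTSeq, Genrich 0.5, Bowtie2, HISAT2, Trim Galore 0.5.0), the role in these tables is not stated. The counter is not given in the sources used here. Each table lists most barcodes again further down with other counts; rows of that later listing, whose barcodes have 2 hyphens, were used. The other 16 samples (8 RNA, 8 ATAC sequencing) were not analysed here.

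Cells with at least 500 genes and at most 10% mitochondrial UMIs were kept (7398), with no doublet removal. Leiden clustering used log values per 10000 UMIs of 2000 variable genes, 30 principal components and 15 neighbours (resolution 1.0, scanpy 1.11.5, igraph 0.11.9, no integration). CD8 T cells were 10 of the 16 clusters (5015 cells), those with mean CD8 and CD3 levels each at least 0.5 times the highest cluster's. The planned clause that no other lineage list leads was not applied: globin genes had a higher fold than the CD8 list in clusters 2, 3 and 13, gamma delta genes in 8 and 12 and CD4 genes in 15, and alternatives without them were run. Doublets may remain.

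UMIs were summed per library and divided by the total to give CPM. Ratios have exact conditional binomial, levels exact Poisson and shares Clopper-Pearson 95% intervals (scipy 1.17.1), which treat UMIs and cells as independent and so are too narrow for genes held by few cells. A sum of 0 was set to 3 UMIs for a fold. The fold calculation was tested on simulated data. Alternatives include TMM factors (edgeR 4.0.16, R 4.3.3). The rule for named genes was all 9 members, the 3 most alike genes of each, and members of fixed lists past the floor; the genes leading clusters were named after their values were seen. Members and lists were chosen with earlier results of these data known. The gene most alike to Klrc1 is not reported here.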

Additional observations from a re-analysis of the deposited data

Results flagged for a closer look

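Klrk1 lay on opposite sides of 0 in the 2 genotype comparisons. Knockout over wild-type, its log2 fold was -0.12 (-0.18 to -0.07) under anti-PD-L1 and 0.20 (0.13 to 0.27) untreated, both under 1.5-fold and with counting intervals that exclude 0. The difference between the 2 folds was not tested, each resting on 1 library a group. Scaled to CD8 and CD3 UMIs the untreated value was -0.14 and the value under anti-PD-L1 was -0.04.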

How the results depend on the processing

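No paired analysis was possible because only the single-cell libraries were analysed and each group has 1 of them. Over 16 planned or added settings, 40 of 576 log2 folds of members had the other sign than the value reported. Of these, 35 belonged to differences under 1.5-fold or to Klrg1, and 5 to differences counted as higher or lower; 459 folds stayed within the counting interval of the value reported. All 5 reversals of counted differences came without the clusters led by another lineage list. That setting follows the planned definition of CD8 T cells, whose clause on other lineages was not applied to the values reported. It leaves 149 treated and 570 untreated knockout cells and 139 treated and 545 untreated wild-type cells. It drops cluster 8, led by Gm156. Untreated, the genotype folds there were -0.12 for Klrc1, -0.30 for Klrd1 and -0.93 for Gm156, and the wild-type treatment folds were -0.12 for Klrd1 and -0.83 for Klre1.

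Of members higher in knockout untreated, 3 in place of 6 were counted under that setting, with scaling to CD8 and CD3 UMIs and at 2-fold; lower were 2 under that setting and 1 (Klre1) without globin-led clusters, in place of 0. Under anti-PD-L1, 1 in place of 3 was higher with a floor of 50 CPM, and 1 in place of 0 (Klre1) was lower without globin-led clusters. With treatment in knockout, 2 in place of 1 were higher with the other listing of barcodes and without globin-led clusters, and 3 without clusters led by another list. The 1 lower there, BC035044, was 0 with cells weighted equally, without mitotic cells, without clusters led by another list, without clusters mostly of 1 library, at 50 CPM and at 2-fold. With treatment in wild-type, 3 in place of 5 were higher without mitotic cells, scaled to CD8 and CD3 UMIs and at 2-fold, and 2 without clusters led by another list; lower were 3 there, and 0 with cells weighted equally, without mitotic cells, without clusters mostly of 1 library and at 50 CPM. With cells weighted equally, without mitotic cells and without clusters mostly of 1 library, BC035044 went uncounted. Its mean level, 21.4 CPM as reported, was 19.1, 16.0 and 19.3 CPM in these settings, below the 20 CPM floor. Its treatment folds there were -0.81, -0.99 and -0.64 in knockout and -1.54, -1.45 and -0.65 in wild-type. A higher floor or fold admits fewer genes, and the cause of the other changes was not tested. The shares of all genes under these settings are not set beside the counts, which describe the members only. Klri2 and Gm156 had genotype folds above 0 in every setting but the reversal named. Of the shares, 87 stayed within their intervals and 57 moved. The 1 library a group and the depth of the shallowest, 3750 UMIs a cell at the median, limit all of these values.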
